A study of Mus musculus with 50 samples.

Results

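The genes described here are 10 chaperone genes of the mouse cytosol that are commonly read as the heat shock response, taken by symbol from a table of 39056 genes. They are the HSP70 genes Hspa1a, Hspa1b and Hspa8, the HSP90 genes Hsp90aa1 and Hsp90ab1, the HSP110 gene Hsph1, the J-protein gene Dnajb1, the small heat shock protein genes Hspb1 and Hspb8, and the co-chaperone gene Bag3. They were followed in 50 bulk RNA-seq libraries of developing oligodendrocytes, to see whether a stress of the endoplasmic reticulum (ER) or an inflammatory cytokine also moves the chaperones of the cytosol.

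The cells were oligodendrocyte precursors, purified by immunopanning from brain cortex of C57BL/6 pups aged 6 days, taken through 2 passages and left to differentiate for 12 to 14 h before treatment. The 10 Nrf2 -/- groups had 3 libraries each, and the 10 wild-type groups had 2 libraries each. In both genotypes, cells received thapsigargin (200 µM as labelled, a blocker of the ER calcium pump) for 1 or 8 h, or 200 U/ml IFN-γ for 1, 8, 24 or 48 h, or were left untreated for 1, 8, 24 or 48 h. The untreated cells are the only controls, and no vehicle is named. The labels do not say that the replicates are separate cultures, so a p-value here speaks of the scatter among libraries and that scatter may be technical.

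In unstressed cells, heat shock factor 1 (HSF1) is held inactive by chaperones. When misfolded protein builds up in the cytosol or nucleus, HSF1 is released and binds heat shock elements, and it drives genes such as Hspa1a, Hspa1b, Dnajb1, Hspb1 and Bag3. ER stress is sensed by a separate system, the unfolded protein response, whose chaperone targets include Hspa5 and Hsp90b1. Hspa8 and Hsp90ab1 are constitutive forms that cells carry without stress, and maturing oligodendrocytes make large amounts of myelin protein.

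The libraries held 32252272 to 54657205 gene counts, with a median of 36046423. Levels are CPM, read counts scaled to a common library size with TMM factors, and a gene was called when edgeR's quasi-likelihood test gave an adjusted p (Benjamini-Hochberg over the 16460 genes tested) below 0.05. Known responders to each treatment were called: Hspa5 stood 3.41 higher on the log2 scale at 8 h of thapsigargin than in untreated cells, Ddit3 5.85 higher, and at 8 h of IFN-γ Irf1 stood 5.55 higher. Nfe2l2, the gene of NRF2, was lower in Nrf2 -/- than in wild-type cells by a log2 difference of -4.82 without treatment. 1 Nrf2 -/- library, untreated 8 h replicate 3, held Nfe2l2 at 7.62 CPM, inside the range of untreated wild-type libraries at that hour, and 3 libraries, replicate 2 of each Nrf2 -/- group at 8 h, carry a title and a genotype field that differ. At 8 h Nfe2l2 stood at 0.209 to 0.432 CPM in Nrf2 -/- IFN-γ libraries and at 0.612 to 0.859 CPM in Nrf2 -/- thapsigargin libraries. Wild-type libraries of these treatments held 15.8 to 19.4 and 17.2 to 17.3 CPM. All 12 markers of the oligodendrocyte lineage were above 0.1 CPM in every group, and 5 of 7 microglia and macrophage markers (Cx3cr1, Csf1r, Aif1, Itgam and Tmem119) had group means below it throughout. The other markers of that list were P2ry12, at 1.04 to 7.62 CPM over the libraries, and Cd68, at 2.57 to 8.15 CPM, and the whole list summed to 3.81 to 11.3 CPM.

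Per kilobase of exon, the set fell into 3 tiers. Hspa8, the constitutive HSP70, averaged 512.5 CPM per kilobase over the 50 libraries and ranged from 267.2 to 754.7. Hsp90ab1 averaged 273.9 and Hsp90aa1 205.6 CPM per kilobase, and these 3 genes made up 50.0, 26.7 and 20.1% of the set's summed level. Dnajb1, which hands clients to HSP70 and stimulates its ATPase, averaged 17.3 CPM per kilobase, and Hsph1, a nucleotide exchange factor for HSP70, averaged 13.7. The ranges of this pair over the libraries overlapped, from 10.5 to 25.9 CPM per kilobase for Dnajb1 and from 8.40 to 23.7 for Hsph1.

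The other 5 genes formed the low tier. Hspb8, a small heat shock protein that works with BAG3 in selective autophagy, averaged 0.445 CPM per kilobase. Hspa1b averaged 0.387, Hspa1a 0.274 and Bag3 0.0754 CPM per kilobase, and the ranges of these 4 genes overlapped. Hspb1, which holds unfolding proteins in a refoldable state, had 16 reads in all and none in 43 of 50 libraries. A count of 0 allows a level of up to 0.0536 to 0.107 CPM per library, from 3 counts at these depths. Hspb1 did not pass the filter on low counts, so 9 of 10 members were tested, and every count that follows is out of those 9. Bag3, with 343 reads in all and none in 4 libraries, passed that filter through the groups where it was high, so its calls support nothing about the set as a whole, and where it was called the count without it, out of 8, is given too.

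**Figure D1:**
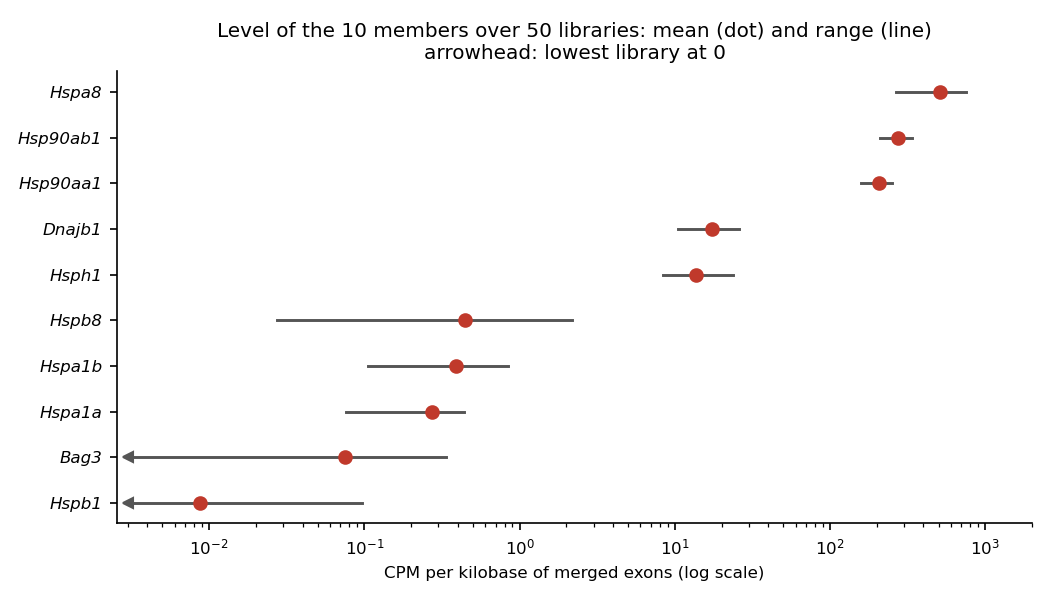
Level of each of the 10 genes in CPM per kilobase of merged exons, on a log axis, with the mean over 50 libraries as a dot and the lowest to highest library as a line (an arrowhead marks a lowest library at 0). Hspa8, Hsp90ab1 and Hsp90aa1 lie between 157 and 755, Dnajb1 and Hsph1 between 8.40 and 25.9, and the other 5 genes below 2.18 CPM per kilobase.

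Promoters are shown because heat shock elements, alternating GAA and TTC units, are the sites that HSF1 binds. Sequences of 7 of the 10 members were found in the RefSeq promoter table (GRCm38.p6), and the 250 bases before each start were searched for 2 adjoining units, spelled GAANNTTC or TTCNNGAA. Each of these spellings reads the same on both strands. Capitals mark the matched letters, and the lines give Hspa1b at chr17:34959239-34959488, minus strand, Hspa1a at chr17:34972157-34972406, minus strand, Hspb1 at chr5:135887669-135887918, plus strand, and Hsph1 at chr5:149636337-149636586, minus strand.
Hspa1b: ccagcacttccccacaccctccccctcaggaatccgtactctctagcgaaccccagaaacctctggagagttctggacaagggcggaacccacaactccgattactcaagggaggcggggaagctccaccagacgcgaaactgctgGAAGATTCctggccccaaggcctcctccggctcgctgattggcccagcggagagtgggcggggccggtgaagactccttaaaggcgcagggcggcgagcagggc
Hspa1a: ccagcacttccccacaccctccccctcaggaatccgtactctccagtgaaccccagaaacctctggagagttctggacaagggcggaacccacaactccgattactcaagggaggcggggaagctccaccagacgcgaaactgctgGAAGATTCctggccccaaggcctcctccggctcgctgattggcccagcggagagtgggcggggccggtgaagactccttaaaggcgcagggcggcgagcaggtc
Hspb1: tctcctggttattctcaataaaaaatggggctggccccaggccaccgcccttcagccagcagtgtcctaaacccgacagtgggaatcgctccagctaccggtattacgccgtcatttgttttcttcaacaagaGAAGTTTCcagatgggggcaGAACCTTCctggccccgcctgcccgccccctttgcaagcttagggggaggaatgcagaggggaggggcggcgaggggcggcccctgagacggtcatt
Hsph1: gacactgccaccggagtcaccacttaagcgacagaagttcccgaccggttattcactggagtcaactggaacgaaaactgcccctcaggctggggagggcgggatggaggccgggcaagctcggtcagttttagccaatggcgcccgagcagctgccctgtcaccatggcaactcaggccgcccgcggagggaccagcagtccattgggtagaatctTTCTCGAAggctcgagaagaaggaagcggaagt
These 4 of 7 members held a match, and the 7 members had 9 windows in all. Of 32851 mouse promoter windows of the same length 12.84% held one, which is a share of windows and not of genes. In Hspa1b and Hspa1a the match lay 104 to 97 bases before the start, and the 2 windows differed at 3 of 250 positions. Hspb1 held 2 matches, 117 to 110 and 97 to 90 bases before the start, and Hsph1 held a match 33 to 26 bases before it. No window of Hspb8, Bag3 or Dnajb1 held these letters, which says nothing of binding outside the window or to looser sites. Runs of 3 alternating units were in 0 of 7 members and in 0.47% of all windows, and the ER stress element was in 0 of 7 members and in 0.11% of all windows.

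Thapsigargin at 8 h moved genes of the set in both directions: Hspa1b and Hspb8 of the low tier rose, and so did Bag3, while Hspa8, Hsph1, Dnajb1 and Hsp90aa1 fell. Hspa1a and Hsp90ab1 were not called. Here and below, a rise or fall with a treatment is against untreated cells of the same hour. Of the 9 genes, 7 were called, 3 higher and 4 lower, where 67.1% of all tested genes were called, 34.3% higher and 32.9% lower. Without Bag3, 6 of 8 genes were called, 2 higher and 4 lower, with a median log2 difference of -0.10, against 0.01 over all genes. These counts are near the share among all genes. In bulk RNA, fewer cells of a type and less RNA per cell cannot be told apart.

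Hspa8 carried most of the loss. At 8 h of thapsigargin it stood at 1206, 1186 and 1254 CPM in Nrf2 -/- libraries and at 1276 and 1149 CPM in wild-type libraries, against 2940, 2806 and 2617 CPM in untreated Nrf2 -/- libraries and 3080 and 2997 CPM in untreated wild-type libraries. Every treated library lay below every untreated one at that hour. The log2 difference was -1.26 (SE 0.055), a fold of 0.417, with an edgeR adjusted p of 1.23e-22. These 5 were also the lowest Hspa8 levels of all 50 libraries. Summed over the set, levels averaged 2957 ± 106 CPM in treated Nrf2 -/- cells (SD, n = 3) and 2814 ± 262 CPM in treated wild-type cells (SD, n = 2), against 4626 ± 158 and 4940 ± 45.2 CPM in untreated Nrf2 -/- and wild-type cells.

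Hsph1 and Dnajb1, the partners of HSP70, fell with it. Hsph1 stood at 69.9, 61.0 and 68.0 CPM in treated Nrf2 -/- libraries and at 72.5 and 87.6 CPM in treated wild-type libraries, against 130, 123 and 172 CPM and 142 and 142 CPM in the untreated libraries of the same genotypes. The groups did not overlap, and the log2 difference was -0.96 (SE 0.076, edgeR adjusted p = 2.15e-14). Dnajb1 stood at 33.8, 34.8 and 38.9 CPM in treated Nrf2 -/- libraries and at 39.7 and 34.7 CPM in treated wild-type libraries, against 63.5, 67.6 and 59.9 CPM and 67.9 and 66.1 CPM without treatment. Again no treated library reached an untreated one, with a log2 difference of -0.84 (SE 0.051, edgeR adjusted p = 4.96e-18).

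The 2 HSP90 genes differed from each other. Hsp90aa1, the stress-responsive form, stood at 718, 789 and 768 CPM in treated Nrf2 -/- libraries and at 776 and 619 CPM in treated wild-type libraries, against 897, 856 and 713 CPM and 924 and 883 CPM without treatment. 1 untreated Nrf2 -/- library, replicate 3, lay among the treated ones, and the log2 difference was -0.24 (SE 0.058, edgeR adjusted p = 0.000325). Hsp90ab1, the constitutive form, stood at 735 to 925 CPM in treated libraries and at 718 to 884 CPM in untreated ones. These ranges overlapped, and the log2 difference was 0.05 with a 95% interval from -0.08 to 0.19 (edgeR adjusted p = 0.495).

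Among the genes of the low tier, Hspa1b stood at 2.27, 2.18 and 1.85 CPM in treated Nrf2 -/- libraries and at 2.35 and 1.58 CPM in treated wild-type libraries. In untreated cells it stood at 1.44, 1.12 and 1.42 CPM and at 1.11 and 1.11 CPM. All 5 treated libraries lay above all 5 untreated ones, and the log2 difference was 0.74 (SE 0.215), a fold of 1.68, with an edgeR adjusted p of 0.0025. Its neighbour Hspa1a stood at 0.967 to 1.30 CPM in treated libraries and at 0.934 to 1.14 CPM in untreated ones, which overlap. The log2 difference of Hspa1a was 0.12, with a 95% interval from -0.38 to 0.62 (edgeR adjusted p = 0.698).

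Hspa1a and Hspa1b encode nearly the same protein, and the counting may have divided reads they share, so their split is uncertain. Hspa1a also overlaps a gene on the other strand, and the strand setting of the counting is not given in the sources used here. Summed, the pair rose by a log2 difference of 0.49 (edgeR adjusted p = 0.0167). The pair took 0.26 ± 0.0249% of the reads of the 3 HSP70 genes in treated Nrf2 -/- cells and 0.254 ± 0.0454% in treated wild-type cells, against 0.0863 ± 0.00678% and 0.0676 ± 0.000595% in untreated cells of these genotypes (SD, n = 3 and n = 2). Both the rise of Hspa1b and the fall of Hspa8 enter this share.

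Bag3, which links HSP70 to HSPB8 and to autophagy, stood at 0.583, 0.582 and 0.495 CPM in treated Nrf2 -/- libraries and at 0.453 and 0.376 CPM in treated wild-type libraries. Untreated libraries held 0.133, 0 and 0.0525 CPM and 0.155 and 0.0246 CPM. No untreated library reached a treated one. The reads behind this were 85 in the 5 treated libraries and 14 in the 5 untreated ones, a ratio of 6.87 with a 95% interval of 3.88 to 13.1 that covers counting error only. The log2 difference from the model was 2.65 (SE 0.585, edgeR adjusted p = 0.000125). A gene on the same strand, 2610306O10Rik, overlaps Bag3, so these reads cannot be given to Bag3 with certainty.

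Hspb8, the partner of BAG3, stood at 0.961, 0.669 and 0.727 CPM in treated Nrf2 -/- libraries and at 1.36 and 0.618 CPM in treated wild-type libraries. In untreated libraries it stood at 0.239, 0.0764 and 0.315 CPM and at 0.181 and 0.320 CPM. The groups did not overlap, with 149 reads in treated and 44 in untreated libraries, and the log2 difference was 1.92 (SE 0.433, edgeR adjusted p = 0.000173). Hspb1 had 3 reads in the 5 treated and 1 read in the 5 untreated libraries, a ratio of 3.40 with a 95% counting interval of 0.273 to 178.

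The responses at 8 h of thapsigargin were present in each genotype. Within Nrf2 -/- cells 6 of 9 genes were called, where 60% of all genes were, and within wild-type cells 7 of 9, where 55.5% were. Without Bag3 these were 5 and 6 of 8 genes. Hsp90aa1 was called in wild-type cells, with a log2 difference of -0.37 (edgeR adjusted p = 0.000541), and the test of its difference between genotypes is given with the interaction contrasts. All 7 calls held under each of the 19 alternatives tried, which included leaving out each library of the comparison. Over the same groups the summed level of the oligodendrocyte lineage markers ranged from 4064 to 4423 CPM in treated Nrf2 -/- and from 3922 to 4539 CPM in treated wild-type libraries, against 9473 to 10150 CPM and 10580 to 10880 CPM in untreated ones. The 7 astrocyte markers, of which Gja1 was below 0.1 CPM, summed to 126 to 133 CPM and 126 to 140 CPM in treated Nrf2 -/- and wild-type libraries, against 271 to 303 CPM and 309 to 313 CPM in untreated ones. The marker of this list with the highest median, S100b, ran from 55.87 to 396.3 CPM over the 50 libraries. The next highest, Slc1a3, ran from 7.943 to 66.01 CPM, so the sum is no measure of astrocyte content. The part of these shifts in the results was not tested.

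**Figure D2:**
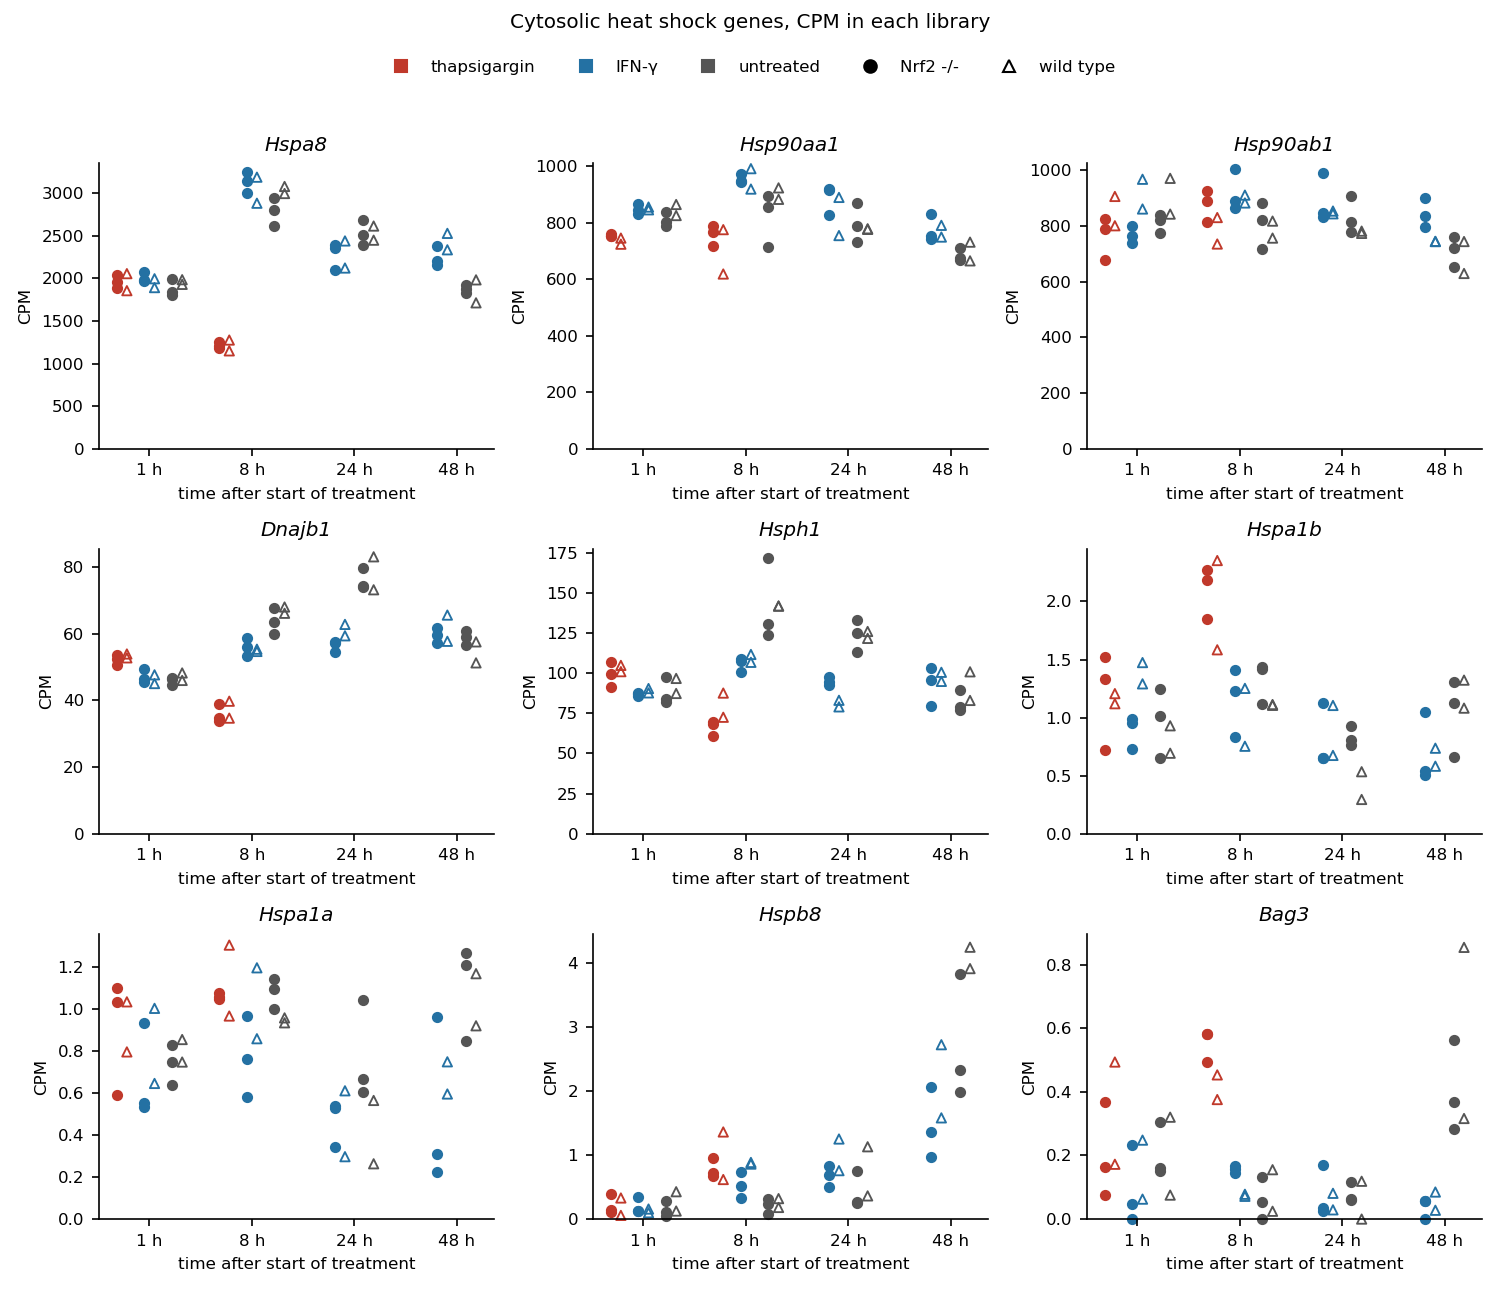
CPM of the 9 tested genes in each of the 50 libraries by hour, with colour for treatment, filled circles for Nrf2 -/- and open triangles for wild-type libraries (1 panel per gene, each axis from 0). At 8 h the 5 thapsigargin libraries of Hspa8 lie at 1149 to 1276 CPM, below the untreated 2617 to 3080 CPM, while those of Hspa1b lie at 1.58 to 2.35 CPM, above the untreated 1.11 to 1.44 CPM.

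After 1 h of thapsigargin, ER chaperones had already risen and 1 gene of the cytosolic set was called higher. This count is near the share called higher among all tested genes. Dnajb1 alone of the 9 genes was called, where 20.4% of all tested genes were called and 12.9% were called higher. It stood at 50.6, 52.3 and 53.6 CPM in treated Nrf2 -/- libraries and at 52.7 and 53.9 CPM in treated wild-type libraries, against 46.5, 46.7 and 44.6 CPM and 45.9 and 48.2 CPM without treatment. All treated libraries lay above all untreated ones. The log2 difference was 0.18 (SE 0.050), a fold of 1.13, with an edgeR adjusted p of 0.00733. At 8 h the same gene lay below its untreated level, as given above.

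Hsp90aa1 did not overlap between the groups at 1 h either, with 724 to 760 CPM in treated and 789 to 865 CPM in untreated libraries. Its log2 difference was -0.15 with an edgeR adjusted p of 0.0613, and DESeq2 gave an adjusted p of 0.0203. Hspa1b stood at 0.721 to 1.52 CPM in treated and at 0.650 to 1.24 CPM in untreated libraries, which overlap, with a log2 difference of 0.41 (edgeR adjusted p = 0.239). The median log2 difference of the 9 genes was 0.17, and 0.1 without Bag3, against -0.01 over all genes.

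At 1 h the transcripts of Hsph1 also differed in their shares. In the kallisto estimates, Hsph1-204 took 1.95 to 3.52% of the gene's estimated counts in treated Nrf2 -/- libraries and 1.79 to 1.97% in treated wild-type libraries, against 4.27 to 6.83% and 4.89 to 4.94% in untreated ones. The ranges did not overlap in either genotype. At 8 h the share was 6.37 to 7.94% and 6.28 to 6.62% in treated libraries, against 4.50 to 6.47% and 4.71 to 5.44% in untreated ones. This transcript was singled out after its values were seen, and the shares were not tested.

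At 1 h of IFN-γ, edgeR called 0 of 9 genes, where 3.64% of all tested genes were called. None of the 9 had an unadjusted p below 0.05, against 10.7% of all tested genes, and DESeq2 also called none of the 9. The median log2 difference of the set was -0.03, and -0.014 without Bag3, against -0.002 over all genes. Hspa8 stood at 1892 to 2070 CPM in treated and at 1800 to 1996 CPM in untreated libraries.

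At 8 h of IFN-γ, Hsph1 and Dnajb1 fell and Hspb8 rose, with smaller shifts of both HSP90 genes. In all 5 of 9 genes were called, 3 higher and 2 lower, where 39.8% of all tested genes were called, 19.4% higher and 20.4% lower. Hsph1 stood at 109, 108 and 101 CPM in treated Nrf2 -/- libraries and at 107 and 112 CPM in treated wild-type libraries, all below the untreated 123 to 172 CPM. Its log2 difference was -0.40 (SE 0.075, edgeR adjusted p = 2.56e-05). Dnajb1 stood at 55.9, 53.3 and 58.6 CPM in treated Nrf2 -/- libraries and at 54.6 and 55.3 CPM in treated wild-type libraries, all below the untreated 59.9 to 67.9 CPM, with a log2 difference of -0.24 (edgeR adjusted p = 0.000157).

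Of the 9 tested genes, Hspb8 had the largest rise at 8 h of IFN-γ. It stood at 0.732, 0.510 and 0.332 CPM in treated Nrf2 -/- libraries and at 0.859 and 0.884 CPM in treated wild-type libraries, all above the untreated 0.0764 to 0.320 CPM. The reads were 117 in treated and 44 in untreated libraries, a ratio of 2.93 with a 95% counting interval of 2.06 to 4.25, and the log2 difference was 1.56 (SE 0.448, edgeR adjusted p = 0.00471). Hspb1, which was not tested, had 6 reads in treated and 1 read in untreated libraries, a ratio of 6.62 with a 95% counting interval of 0.803 to 305. Hsp90aa1 had a log2 difference of 0.15 (edgeR adjusted p = 0.039) and Hsp90ab1 of 0.19 (edgeR adjusted p = 0.0243), and for both the treated and untreated ranges overlapped. These last 2 calls were lost in 9 and 8 of 19 alternatives, with adjusted p up to 0.163 and 0.114. Hspa1b stood at 0.754 to 1.41 CPM in treated and at 1.11 to 1.44 CPM in untreated libraries, with a log2 difference of -0.18 (SE 0.231). At this hour the oligodendrocyte lineage markers summed to 6811 to 7730 CPM and 7299 to 7897 CPM in treated Nrf2 -/- and wild-type libraries, below the untreated sums given above. The 7 neuron markers, of which Slc17a7 was below 0.1 CPM in every group, summed to 388 to 437 CPM and 413 to 447 CPM in treated Nrf2 -/- and wild-type libraries, against 86.8 to 97.7 CPM and 87.9 to 90.7 CPM in untreated ones. Most of this sum was Tubb3, a tubulin gene, which ran from 37.2 to 425 CPM over the 50 libraries. The next highest marker, Syt1, ran from 1.53 to 19.6 CPM, so the sum is no measure of neuron content. The part of these shifts in the results was not tested.

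At 24 h of IFN-γ, 3 of 9 genes were called, where 55.9% of all tested genes were called, and all 3 were lower, where 28.4% of all genes were. Dnajb1 stood at 54.6, 57.1 and 57.5 CPM in treated Nrf2 -/- libraries and at 59.3 and 62.7 CPM in treated wild-type libraries, all below the untreated 73.1 to 83.0 CPM. Its log2 difference was -0.39 (SE 0.050, edgeR adjusted p = 9.05e-09). Hsph1 stood at 79.0 to 97.8 CPM in treated and at 113 to 133 CPM in untreated libraries, with no overlap and a log2 difference of -0.50 (edgeR adjusted p = 3.44e-07). Hspa8 had a log2 difference of -0.15 (edgeR adjusted p = 0.0177), with overlapping ranges of 2097 to 2440 CPM in treated and 2387 to 2688 CPM in untreated libraries. That call was lost in 6 of 19 alternatives, with an adjusted p of up to 0.358. Oligodendrocyte lineage markers at 24 h summed to 7947 to 9626 CPM in treated Nrf2 -/- and 8764 to 10200 CPM in treated wild-type libraries. The untreated sums were 20400 to 22440 CPM and 21460 to 24840 CPM. The part of this shift in the results was not tested.

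Hspa1b at 24 h stood at 1.13, 0.654 and 0.657 CPM in IFN-γ-treated Nrf2 -/- libraries and at 1.10 and 0.675 CPM in treated wild-type libraries, against 0.765, 0.928 and 0.804 CPM and 0.535 and 0.296 CPM without treatment. The Nrf2 -/- groups overlapped and the wild-type groups did not. The log2 difference was 1.07 in wild-type cells (SE 0.435, edgeR adjusted p = 0.0433) and -0.001 in Nrf2 -/- cells (edgeR adjusted p = 1.0). Over both genotypes it was 0.54 (edgeR adjusted p = 0.0876), and the difference between the genotypes is given with the interaction contrasts.

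At 48 h of IFN-γ, Hspa8, Hsp90aa1 and Hsp90ab1 stood higher than in untreated cells of that hour. Hspb8, Hspa1a, Hspa1b and Bag3 stood lower. Of the 9 genes, 7 were called, 3 higher and 4 lower, where 55.8% of all tested genes were called, 27.3% higher and 28.5% lower. Without Bag3, 6 of 8 were called, 3 in each direction. Hspa8 stood at 2159, 2202 and 2382 CPM in treated Nrf2 -/- libraries and at 2529 and 2336 CPM in treated wild-type libraries, all above the untreated 1713 to 1983 CPM. Its log2 difference was 0.33 (SE 0.054, edgeR adjusted p = 1.86e-06). Without treatment, the 3 higher genes fell between 24 and 48 h and the 4 lower genes rose, as given below. For each higher gene, the IFN-γ ranges of these hours overlapped. For Hspa8 they were 2097 to 2440 (24 h) and 2159 to 2529 CPM (48 h). For Hsp90aa1 they were 755 to 921 and 744 to 832 CPM, and for Hsp90ab1 834 to 991 and 744 to 900 CPM. The change between these hours within IFN-γ libraries was not tested.

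Bag3 had 8 reads in the 5 IFN-γ libraries of 48 h and 81 in the 5 untreated ones, a ratio of 0.093 with a 95% counting interval of 0.0388 to 0.192. The levels were 0, 0.0566 and 0.0566 CPM in treated Nrf2 -/- libraries and 0.0277 and 0.0851 CPM in treated wild-type libraries, against 0.283, 0.370 and 0.563 CPM and 0.316 and 0.854 CPM without treatment. The groups did not overlap, and the log2 difference from the model was -3.32 (SE 0.647, edgeR adjusted p = 3.21e-05). Hspb8 stood at 1.36, 0.962 and 2.06 CPM in treated Nrf2 -/- libraries and at 1.58 and 2.72 CPM in treated wild-type libraries, against 2.33, 1.98 and 3.83 CPM and 3.91 and 4.24 CPM without treatment. The Nrf2 -/- groups overlapped, and the log2 difference was -0.91 (SE 0.301, edgeR adjusted p = 0.00968).

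Hspa1a stood at 0.226 to 0.962 CPM in treated and at 0.849 to 1.27 CPM in untreated libraries, with a log2 difference of -0.89 (SE 0.268, edgeR adjusted p = 0.00468). Hspa1b stood at 0.509 to 1.05 CPM in treated and at 0.660 to 1.32 CPM in untreated libraries, with a log2 difference of -0.71 (SE 0.249, edgeR adjusted p = 0.0142). Both pairs of ranges overlapped. The differences of Hsp90aa1 (0.16, edgeR adjusted p = 0.0175) and Hsp90ab1 (0.18, edgeR adjusted p = 0.021) were small, and without wild-type IFN-γ replicate 1 only 4 of 9 genes were called at this hour. Oligodendrocyte lineage markers summed to 18150 to 20180 CPM in treated Nrf2 -/- and 21590 to 21990 CPM in treated wild-type libraries at 48 h, against 36660 to 38820 CPM and 37970 to 39850 CPM in untreated ones, and their part in the results was not tested.

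**Figure D3:**
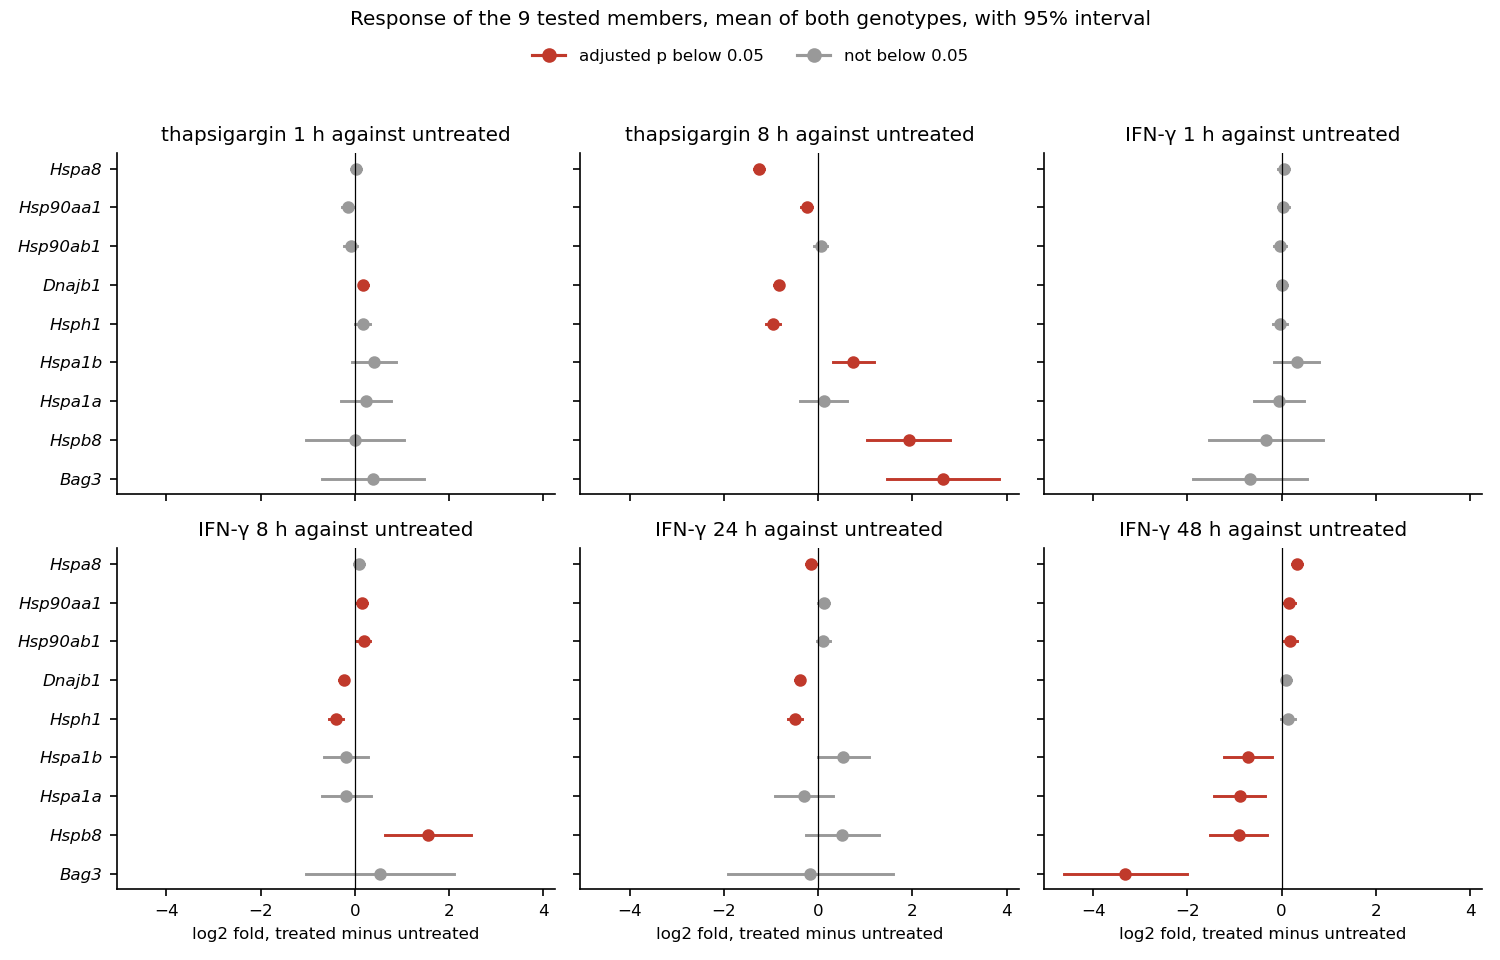
Log2 fold of treated over untreated cells for the 9 tested genes in each of 6 comparisons, mean of both genotypes, with 95% intervals as lines and calls at an adjusted p below 0.05 in red. Hspa8 lies at -1.26 and Bag3 at 2.65 after 8 h of thapsigargin, and at 0.33 and -3.32 after 48 h of IFN-γ.

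Set directly against each other at 8 h, thapsigargin and IFN-γ differed in 6 of 9 genes, 2 higher and 4 lower with thapsigargin, where 67.8% of all tested genes were called, 34.1% higher and 33.8% lower. Without Bag3 there were 5 of 8, 1 higher and 4 lower. Hspa1b was higher with thapsigargin by a log2 difference of 0.92 (SE 0.222, edgeR adjusted p = 0.000372) and Bag3 by 2.11 (SE 0.574, edgeR adjusted p = 0.00137). Hspa8 was lower with thapsigargin by a log2 difference of -1.34 (edgeR adjusted p = 1.23e-23), Dnajb1 by -0.60, Hsph1 by -0.56 and Hsp90aa1 by -0.39. Hspb8, which rose with both treatments, stood at 0.618 to 1.36 CPM with thapsigargin and at 0.332 to 0.884 CPM with IFN-γ. These ranges overlapped, and the log2 difference was 0.37 with an adjusted p of 0.393 by edgeR. At 1 h, 3 of 9 genes were called, 2 higher and 1 lower, where 24.3% of all tested genes were called, 13.9% higher and 10.5% lower. Dnajb1 differed by 0.18, Hsph1 by 0.20 and Hsp90aa1 by -0.19 on the log2 scale. The Hsph1 call (edgeR adjusted p = 0.0464) was lost in 14 of 19 alternatives, with an adjusted p of up to 0.138. Without wild-type IFN-γ replicate 1 or wild-type thapsigargin replicate 1, a single gene of the 9 was called.

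Genes of the set also moved with time in untreated cells. From 1 to 8 h, Hsph1, Dnajb1 and Hspa8 rose. These 3 of 9 genes called are near the 36.7% called among all tested genes, of which 20% were called higher. Hspa8 had 1800 to 1996 CPM at 1 h, 2617 to 3080 CPM at 8 h, 2387 to 2688 CPM at 24 h and 1713 to 1983 CPM at 48 h. The peak was at 8 h, and the 48 h range overlapped that of 1 h. From 8 to 24 h, 6 of 9 genes were called, 2 higher and 4 lower, where 47.7% of all genes were called, 23.3% higher and 24.4% lower. In that comparison the rise of Hspb8 (log2 difference 1.30, edgeR adjusted p = 0.0192) was lost in 5 of 19 alternatives, with a value of 0.77 and an adjusted p of 0.277 without wild-type untreated 24 h replicate 1. The fall of Hsph1 (-0.20, edgeR adjusted p = 0.028) was lost in 6 of 19, with a value of -0.12 and an adjusted p of 0.163 without Nrf2 -/- untreated 8 h replicate 3. From 24 to 48 h all 9 were called, 4 higher and 5 lower, where 53% of all genes were called, 27.4% higher and 25.7% lower. Without Bag3 these were 8 of 8, 3 higher and 5 lower. The calls of Hsp90aa1, Hspa1a and Hsp90ab1 were lost in 1, 1 and 2 of 19 alternatives.

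Between 24 and 48 h Hspb8, Hspa1a, Hspa1b and Bag3 rose, while the 5 genes of the upper 2 tiers fell. Hspb8 had 0.0534 to 0.427 CPM at 1 h, 0.0764 to 0.320 CPM at 8 h, 0.255 to 1.13 CPM at 24 h and 1.98 to 4.24 CPM at 48 h. The untreated groups of 48 h had the highest mean Hspb8 levels of the 20 groups. The log2 difference of 48 h over 24 h was 2.54 (SE 0.347, edgeR adjusted p = 7.55e-08). For Bag3 it was 2.73 (SE 0.615, edgeR adjusted p = 0.000249), for Hspa1a 0.92 and for Hspa1b 0.91, while Hsph1 fell by 0.51, Dnajb1 by 0.45, Hspa8 by 0.44, Hsp90ab1 by 0.20 and Hsp90aa1 by 0.19 on the log2 scale. The lower level of Bag3 and Hspb8 in 48 h IFN-γ libraries is measured against controls that had themselves risen: Bag3 stood at 0.0252 to 0.171 CPM in IFN-γ libraries of 24 h and at 0 to 0.0851 CPM in those of 48 h. Oligodendrocyte lineage markers in untreated libraries summed to 20400 to 22440 CPM in Nrf2 -/- and 21460 to 24840 CPM in wild-type cells at 24 h, below the 48 h sums given above, and their part in these changes was not tested.

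Neither without treatment nor with IFN-γ or thapsigargin was a gene of the set called between the genotypes. NRF2, encoded by Nfe2l2, drives antioxidant and detoxification genes. Averaged over the hours, edgeR called 0 of 9 genes between Nrf2 -/- and wild-type cells in the untreated libraries, where 0.0243% of all tested genes were called (4 genes). It called 0 of 9 in the IFN-γ libraries, where 0.0547% were called, and 0 of 9 in the thapsigargin libraries, where 0.51% were called. DESeq2 called none of the 9 in these 3 comparisons, and 14, 53 and 170 genes in all. At an unadjusted p below 0.05 edgeR gave none of the 9 in untreated cells, none with IFN-γ, and 1, Hsph1, with thapsigargin. Hsph1 was lower in Nrf2 -/- cells there by a log2 difference of -0.16, with a 95% interval from -0.31 to -0.01 (edgeR adjusted p = 0.484).

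The precision of these comparisons differed with abundance. Untreated Hspa8 differed between Nrf2 -/- and wild-type cells by -0.04 on the log2 scale, with a 95% interval from -0.12 to 0.04. Untreated Hspb8 differed by -0.63, with an interval from -1.29 to 0.03 (edgeR adjusted p = 0.764). A p above the threshold does not show that the genotypes are alike, and for Hspb8 a difference of this size could not be told from 0.

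The responses themselves were compared between genotypes by an interaction contrast. In each of the 6 comparisons edgeR called 0 of 9 genes, where 0% of all tested genes were called, and DESeq2 called none of the 9 and from 1 to 13 genes in all. At an unadjusted p below 0.05 edgeR gave 1 of the 9, Hsp90aa1 at 8 h of thapsigargin, and 2.04 to 8.36% of all tested genes. Hsp90aa1 had a higher response in Nrf2 -/- than in wild-type cells, by a log2 difference of 0.26, with a 95% interval from 0.02 to 0.49 (edgeR adjusted p = 0.59). The fall of Hspa8 at 8 h of thapsigargin differed between the genotypes by 0.13, with an interval from -0.09 to 0.35. For Hspa1b at 24 h of IFN-γ the difference was -1.07, with an interval from -2.16 to 0.01 (edgeR adjusted p = 0.668), so the call in wild-type cells was not shown to be particular to them.

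The other chaperone genes were grouped by role, in lists chosen with earlier results of these data known. Among the 4 tested genes of the HSF family and its regulators, Hsf1 rose at 1 h of thapsigargin (log2 difference 0.41, SE 0.081, edgeR adjusted p = 0.000163) and at 8 h (0.55, SE 0.080, edgeR adjusted p = 1.26e-07). At 8 h Hsbp1, an inhibitor of HSF1, fell by 0.62 and Hsf2 by 0.22 on the log2 scale. At 48 h of IFN-γ, 3 of these 4 genes fell, Hsbp1 by 0.41, Hsf1 by 0.30 and Hsf2 by 0.15, where 28.5% of all tested genes fell. Of 20 tested HSP70 partners (J-proteins, BAG proteins and relatives), 6 rose and 7 fell at 8 h of thapsigargin, with a median log2 difference of -0.05. Those 13 of 20 are near the 67.1% called among all tested genes. Dnajb2, a J-protein that sorts clients to the proteasome, rose by 1.21 and Bag5 by 0.71, and Hspa4l, a relative of Hsph1, fell by 0.47.

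Of 15 HSP90 co-chaperones, 6 rose and 5 fell at 8 h of thapsigargin, with a median of 0.01, where 34.3% of all tested genes rose and 32.9% fell. Unc45a, an HSP90 partner in myosin folding, rose by 0.65 and Ahsa2 fell by 0.89 on the log2 scale. Of 8 subunits of the chaperonin TRiC, which folds actin and tubulin, 7 fell at 1 h of thapsigargin with a median of -0.15, where 7.52% of all tested genes fell, and at 8 h 1 rose and 1 fell. Small heat shock proteins outside the set had 2 of 6 genes tested. Of these, Hspb6 fell by 0.69 at 8 h of thapsigargin. At 8 h of IFN-γ Hspb6 had a log2 difference of -0.43 (edgeR adjusted p = 0.0258). Cryab, the alpha-B crystallin gene, rose by 2.17 at 8 h of IFN-γ (SE 0.722, edgeR adjusted p = 0.0141). At 24 h of IFN-γ Cryab rose by 2.49 (SE 0.513, edgeR adjusted p = 6.57e-05), and at 48 h neither gene was called. Without treatment Cryab rose by 4.28 from 24 to 48 h (SE 0.446, edgeR adjusted p = 1.25e-10).

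Chaperones of the other compartments moved in 1 direction at 8 h of thapsigargin. All 13 ER chaperones rose, where 34.3% of all tested genes did, with a median log2 difference of 3.35, and Hyou1, an HSP110 relative of the ER, rose by 3.88. Of 9 mitochondrial chaperones 8 rose and none fell, with a median of 0.43, and Hspa9, the mitochondrial HSP70, rose by 2.36 while cytosolic Hspa8 fell. At 1 h of thapsigargin 12 of 13 ER chaperones had risen, with a median of 0.54, where 12.9% of all tested genes rose, against the single call among the 9 cytosolic genes. At 8 h of IFN-γ, 8 of 13 ER chaperones and 3 of 9 mitochondrial chaperones stood lower than in untreated cells. Of all tested genes 20.4% did, and the median of the ER list was -0.16. From 1 to 8 h without treatment 12 of 13 ER chaperones had risen, with a median of 0.56, where 20% of all tested genes rose. At 48 h of IFN-γ 10 ER chaperones stood higher than in untreated cells of that hour (median 0.40), where 27.3% of all tested genes did. Those controls had themselves moved: from 24 to 48 h without treatment 12 of 13 ER chaperones fell and 1 rose. The median of that change was -0.61, and 25.7% of all tested genes fell.

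At 24 h of IFN-γ, 4 of the 20 HSP70 partners rose and 8 fell, where 27.6% of all tested genes rose and 28.4% fell. Among those that fell were Dnajb2 by a log2 difference of -0.85, Hspa4 of -0.54 and Hspa4l of -0.48. At 48 h Dnajb2 stood lower by -1.50. At that hour 6 of 8 TRiC subunits rose, where 27.3% of all tested genes did, with a median of 0.20, and none fell. In untreated cells all 8 TRiC subunits fell from 24 to 48 h, where 25.7% of all tested genes did, with a median of -0.32. At 1 h of IFN-γ the calls in these lists were Dnajb4 (0.26), Unc45a (-0.18) and the mitochondrial Clpx (0.29).

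**Figure D4:**
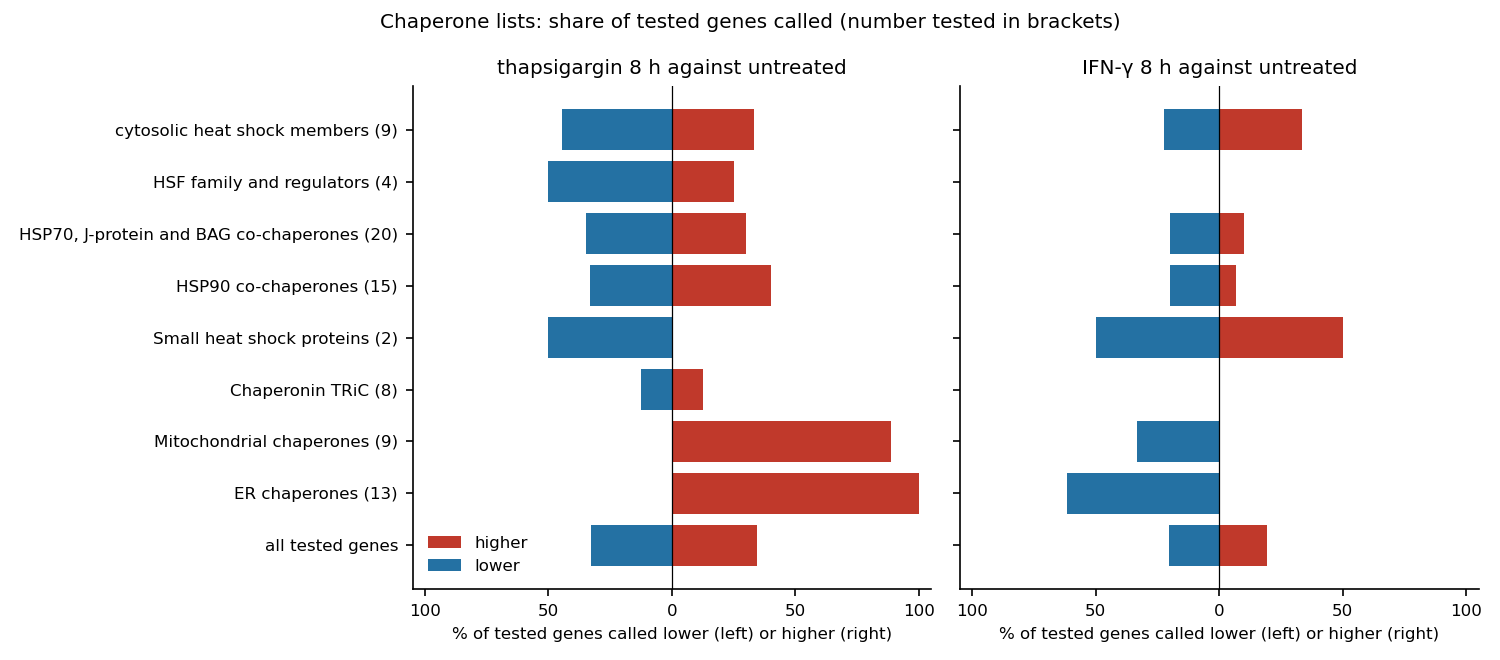
Share of the tested genes of each chaperone list called higher (red, right) or lower (blue, left) after 8 h of thapsigargin and after 8 h of IFN-γ, with the number tested in brackets and all tested genes in the bottom row. ER chaperones are called higher in 13 of 13 with thapsigargin, and the cytosolic set is split, with 3 higher and 4 lower of 9. The bars count Bag3, and without it the set has 2 higher and 4 lower of 8.

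The members did not share 1 pattern over the 20 groups. Across the 20 group means of log2 CPM, the level of Dnajb1 had a Pearson r of 0.79 with Hspa8 and 0.76 with Hsph1, and of -0.70 with Hspa1b and -0.64 with Bag3. Hspa1b had an r of 0.77 with Hspa1a and 0.68 with Bag3. Outside the set, the genes closest to Dnajb1 were Tpi1 (0.96), Atl1 (0.96) and Mob3a (0.95), those closest to Hspa1b were Gm5124 (0.87), Celsr3 (0.87) and Pigb (0.86), and those closest to Bag3 were Twnk (0.94), Cxxc5 (0.92) and Patl1 (0.90). For Hsp90aa1 they were Gm19391 (0.94), Erh (0.89) and Lsm8 (0.89). The groups share hours and treatments, so these are descriptions of the pattern with no test.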

How the data were processed

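Gene-level read counts of 50 libraries came from a table deposited by the authors. STAR for alignment and featureCounts for counting are named in the submitters' processing notes. A second deposited table holds estimated counts per transcript from kallisto, which the authors' notes name. They were summed per gene, rounded to whole numbers, as an alternative and used for transcript shares. For versions, genome build, annotation and strand setting: not given in the sources used here. Symbols and positions came from GENCODE M21 (GRCm38), which matched 38872 of 39056 entries by identifier without version, and 12061 entries had no count in any library. In the transcript table, 111887 of 112588 entries, with 99.65% of the estimated counts, were assigned to a gene.

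Groups came from the sample labels. Replicate numbers were given in accession order and pair nothing. In 3 libraries with conflicting genotype fields the title was followed. No pair of replicates was within sampling noise of another. Genes were kept by filterByExpr (count of 10, total of 15), leaving 16460. With edgeR 4.0.16, all 50 libraries entered 1 negative binomial model that has a mean per group (TMM, robust quasi-likelihood, common dispersion 0.00983) in R 4.3.3. The Benjamini-Hochberg adjustment ran over every tested gene, with calls below 0.05. A treatment response is the mean of the responses of both genotypes. Standard errors (SE) and 95% intervals of log2 differences come from the model's F statistic. Ratios of pooled reads have exact intervals for counting error. Alternatives were DESeq2 1.42.0, RLE and upper-quartile scaling, no filter, the kallisto estimates, other treatments of the conflicting libraries, fits on the hours compared only, the summed Hspa1a and Hspa1b counts, and leaving out each library. Replicates scattered by 2.71 to 38.8 times their sampling noise (median over genes), so the library totals alone do not set the precision.

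The 10 genes and the chaperone lists were chosen with earlier results of these data known. Named genes are the 10 members, Hspa5, Ddit3, Irf1 and Nfe2l2 as checks, up to 3 called genes with the smallest adjusted p in each list and comparison, and the 3 genes most like Dnajb1, Hspa1b, Bag3 and Hsp90aa1 over the 20 groups (among genes of at least 1 CPM).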

Additional observations from a re-analysis of the deposited data

How the results depend on the processing

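No paired analysis was possible because the labels give no replicate numbers that the groups share. Of 50 called values of single genes, 34 were called under every alternative and 0 changed sign. All 7 calls at 8 h of thapsigargin were among those called throughout. At 8 h of IFN-γ, 5 genes were called, and 3 were called with upper-quartile scaling, without a filter on low counts and with the kallisto estimates. At 1 h of thapsigargin 1 gene was called, against 2 with RLE scaling, upper-quartile scaling, no filter or DESeq2, and 3 in the fit on libraries of that hour only, which added Hsp90aa1 and Hsph1. Leaving out 1 library at a time gave 3 to 5 called genes at 8 h of IFN-γ, 4 to 8 at 48 h of IFN-γ, 1 to 2 at 1 h of thapsigargin, and 1 to 3 for thapsigargin against IFN-γ at 1 h. The lowest counts came without wild-type untreated replicate 1 or wild-type IFN-γ replicate 2 at 8 h, without wild-type IFN-γ replicate 1 at 48 h, and without wild-type IFN-γ or wild-type thapsigargin replicate 1 at 1 h. Without the Nrf2 -/- library whose Nfe2l2 was at the wild-type level, 4 genes were called at 8 h of IFN-γ and 7 at 8 h of thapsigargin, and without the 3 libraries of conflicting genotype fields 4 and 7. The higher Hsph1 with thapsigargin than with IFN-γ at 1 h was lost in 14 of 19 alternatives. The cause of these changes was not tested. RLE and upper-quartile scaling moved the median of all genes by -0.097 to 0.015 on the log2 scale. Low counts limit Bag3, Hspb1, Hspb8, Hspa1a and Hspa1b.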
